A study of Mus musculus with 36 samples.

Results

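*Nr1d1* and *Nr1d2*, which encode the nuclear receptors REV-ERBα and REV-ERBβ, and *Rora*, which encodes RORα, were followed by their symbols in the gene counts of every liver library of the series. They are 3 of the 24421 genes counted. The libraries came from livers of 36 male C57BL/6J mice, all of which, controls included, had first been fed for 12 weeks a CDAHFD, a fat-rich diet that lacks choline and supplies amino acids in place of protein and that brings on fatty, fibrotic liver disease. In the first experiment a further 2 weeks on a high-fat diet (HFD) followed, and the mice were injected once a week with Fc at 4.3 mg/kg (Control_HFD, n = 10) or with Fc(mML1)B3 at 5 mg/kg (Treated_HFD, n = 10). In the second experiment they ate a standard diet for 10 days and were injected on days 1, 4 and 7 with Fc at 4.3 mg/kg (Control_Standard_diet, n = 9) or Fc(mML1)B3 at 5 mg/kg (Treated_Standard_diet, n = 7). Fc(mML1)B3 is an antibody Fc fragment that carries a macrocyclic peptide binding the mouse Met receptor and stands in for its ligand HGF, and Fc without the peptide was the control. The mice were bought at 7 weeks of age and kept in 12 h of light and 12 h of dark. The clock hour at which the livers were taken is not given in the sources used here, so hour and group cannot be told apart, and diet cannot be told apart from experiment, dosing schedule and length of treatment.

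REV-ERBα and REV-ERBβ are ligand-regulated repressors that bind heme and recruit the corepressor NCoR with the deacetylase HDAC3. RORα binds the same DNA element, the RORE, and activates from it, so that REV-ERB and ROR proteins compete over genes such as *Arntl* (BMAL1), *Nfil3* and *Cry1*. BMAL1 and CLOCK in turn drive the REV-ERB genes from E-boxes, which closes the second loop of the circadian clock, and in liver the loop also reaches genes of lipid, bile acid and glucose metabolism. In whole liver, fewer cells of a type and less RNA per cell cannot be told apart.

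The DNA at these loci is shown because E-boxes and the RORE are the elements through which the REV-ERB genes are known to be driven and to act, a link that was not tested here. Promoter sequences of all 3 receptors and of 15 other genes, those of the clock lists and *Rorb*, were matched in RefSeq (GRCm38.p6, the build named mm10). *Per2* and *Bhlhe40* had no entry. Windows of 250 bases before and 50 after each start site were searched on both strands for the E-box CACGTG, its variant CACGTT, the receptor core AGGTCA, the longer TAGGTCA, which contains that core, and the D-box TTATGTAA. Of 32851 windows of this kind, 7.15% held CACGTG, 4.68% CACGTT, 16.3% AGGTCA, 2.61% TAGGTCA and 0.938% TTATGTAA. The 250 bases before the start sites of the 2 REV-ERB genes read, on the strand of each gene and with matches in capitals:
Nr1d1 (chr11:98775378-98775627, minus strand): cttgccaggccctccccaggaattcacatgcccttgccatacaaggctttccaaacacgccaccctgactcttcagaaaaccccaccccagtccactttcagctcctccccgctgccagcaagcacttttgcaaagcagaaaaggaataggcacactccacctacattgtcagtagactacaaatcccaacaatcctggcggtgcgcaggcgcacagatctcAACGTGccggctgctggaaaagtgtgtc
Nr1d2 (chr14:18239107-18239356, minus strand): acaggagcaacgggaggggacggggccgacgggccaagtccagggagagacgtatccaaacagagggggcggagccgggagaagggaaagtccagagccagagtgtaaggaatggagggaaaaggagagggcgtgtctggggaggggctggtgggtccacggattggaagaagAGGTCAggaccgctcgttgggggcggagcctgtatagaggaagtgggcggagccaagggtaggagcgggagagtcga
The capitals in *Nr1d1* are CACGTT read on the opposite strand, from 28 to 23 bases before the start, and those in *Nr1d2* are AGGTCA, from 77 to 72 bases before it. No letters of this search were found in the window of *Rora* on chr9. Among the genes that the receptors act on, TAGGTCA stood in *Arntl*, from base 31 to base 37 after a start site, and, on the opposite strand, in *Nfil3*, from 12 to 6 bases before the start. *Cry1* held CACGTG from 60 to 55 bases before its start. These are sequence matches only:
Arntl (chr7:113207530-113207559, plus strand): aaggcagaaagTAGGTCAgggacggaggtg
Nfil3 (chr13:52981033-52981062, minus strand): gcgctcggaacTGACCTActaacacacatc
Cry1 (chr10:85185097-85185126, minus strand): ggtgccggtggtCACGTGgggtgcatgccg

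On mm10 the deposited gene models place *Nr1d1* at chr11:98767932-98775377 on the minus strand, with 8 exons and 2765 bases of exon, and *Nr1d2* at chr14:18204056-18239106 on the minus strand, with 8 exons and 4640 bases. *Rora* spans chr9:68653786-69388246 on the plus strand, with 14 merged exons and 12321 bases. Libraries held 14949035 to 28466853 counted read ends (median 23558194.5). The members drew 61 to 3496 read ends in a library for *Nr1d1*, 266 to 3672 for *Nr1d2* and 1029 to 2869 for *Rora*, so each value of a member rests on 61 read ends or more, while other genes named below, such as *Arntl*, *Npas2* and *Rorb*, had fewer in some libraries. Values are CPM, read counts scaled by library size and TMM factors over all 36 libraries, and fold changes are log2 values from edgeR. Hepatocyte genes such as *Alb* and *Apoa1* were abundant in every library, with 6 markers summing to 73480 to 151700 CPM, and the adipocyte and skeletal muscle markers were at or near 0. In GENCODE M21, 263 bases (9.512%) of the exons of *Nr1d1* overlap exons of *Thra* on the other strand. The deposited gene models hold no such overlap. Reads were counted without regard to strand, so reads of *Thra* on these bases can have been counted as *Nr1d1*. *Thra*, a thyroid hormone receptor gene, was at 10.7 ± 2.58, 6.84 ± 2.02, 10.1 ± 0.615 and 7.71 ± 0.902 CPM (mean ± SD) in Control_HFD, Treated_HFD, Control_Standard_diet and Treated_Standard_diet livers, below the mean of *Nr1d1* in each but close to it in Treated_HFD livers.

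Under the HFD, both REV-ERB transcripts were far lower in the livers of mice given the Met agonist, while *Rora* differed little. *Nr1d1* ran from 34.7 to 171.7 CPM (median 73.9) in the 10 Control_HFD livers and from 4.53 to 20.8 CPM (median 8.11) in the 10 Treated_HFD livers. The groups did not overlap: the highest treated liver lay below the lowest control. *Nr1d1* fell by 2.97 on the log2 scale (SE 0.31, 95% interval -3.58 to -2.37), a level 7.85-fold lower, with an adjusted p of 9.67e-07. *Nr1d2* ran from 78.4 to 125.3 CPM (median 104.4) in the controls and from 19.8 to 60.4 CPM (median 34.6) in the treated livers. Again all 10 treated livers lay below all 10 controls. *Nr1d2* fell by 1.51 on the log2 scale (SE 0.15, 95% interval -1.81 to -1.21), a level 2.85-fold lower, with an adjusted p of 7.9e-07. *Rora* ran from 63.7 to 88.9 CPM (median 77.8) in the controls and from 64.8 to 89.2 CPM (median 80.4) in the treated livers, and the groups overlapped over nearly their whole range. Its log2 difference was 0.03 (SE 0.07, 95% interval -0.11 to 0.17) with an adjusted p of 0.828.

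Of 13299 genes tested under the HFD, 14.8% were called at an adjusted p below 0.05, 8.14% as higher and 6.68% as lower, and 0.376% were lower with no overlap between the groups. *Nr1d2* ranked 13th and *Nr1d1* 19th by p. A permutation test of the mean log2 CPM with 100000 resamples, 2-sided, gave 2e-05 for each REV-ERB gene, the smallest value it can give, and 0.746 for *Rora*. Of the neutrophil markers, *S100a8*, *S100a9* and *Csf3r*, 3 of the 4 tested, were also lower in Treated_HFD livers, with a summed level of 11.1 to 19.8 CPM against 13.2 to 63.9 CPM in the controls. *Ms4a1*, 1 of the 4 lymphocyte markers tested, was lower too (summed list 4.03 to 9.59 against 5.37 to 12.9 CPM), and their part in the REV-ERB values was not tested. Of the hepatocyte, macrophage, stellate cell, endothelial and cholangiocyte markers, 0 were called by edgeR in this comparison, with 2 macrophage, 1 endothelial and 1 cholangiocyte marker at an unadjusted p below 0.05.

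The Treated_HFD libraries carry S numbers in the names of their deposited counts, and these form separate series of 4 and 6 libraries, and what the series stand for is not given. *Nr1d1* was 15.4 ± 5.95 CPM in the series of 4 and 7.16 ± 2.73 CPM in the series of 6 (mean ± SD). *Nr1d2* was 46.8 ± 10.3 and 29.1 ± 8.26 CPM. Fitted apart against all the controls, *Nr1d1* was lower by -2.41 and -3.51 and *Nr1d2* by -1.14 and -1.82 on the log2 scale, all 4 called. The controls form another series, so series and protein cannot be told apart under the HFD.

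**Figure D1:**
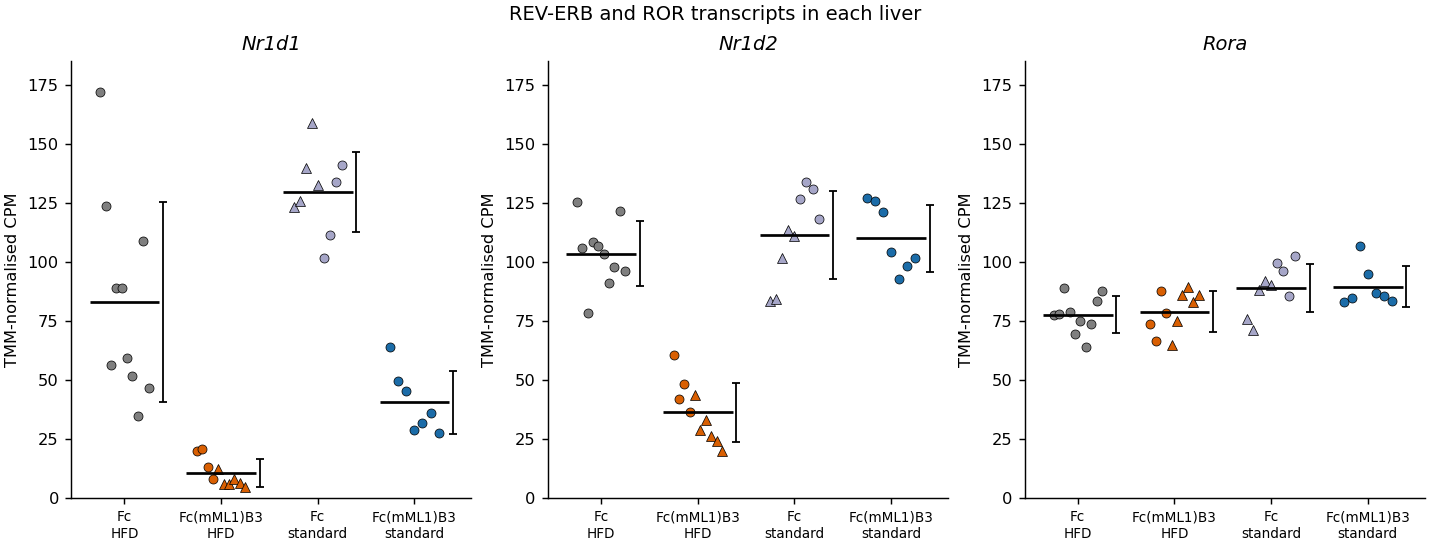
TMM-normalised CPM of Nr1d1, Nr1d2 and Rora in each of the 36 livers, by group on the x axis. Points are mice, spread sideways only to be seen, and bars give the mean and SD. Triangles mark the S-number series of 6 in Treated_HFD and the series of 5 in Control_Standard_diet livers. Treated_HFD livers lie below all Control_HFD livers for Nr1d1 and Nr1d2, Treated_Standard_diet livers lie below all Control_Standard_diet livers for Nr1d1 alone, and the Rora points of each diet overlap.

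Under the standard diet the REV-ERB genes parted: *Nr1d1* was lower in the treated livers and *Nr1d2* was not. *Nr1d1* ran from 101.6 to 158.8 CPM (median 132.7) in the 9 Control_Standard_diet livers and from 27.4 to 63.9 CPM (median 36.04) in the 7 Treated_Standard_diet livers. All 7 treated livers lay below all 9 controls. *Nr1d1* fell by 1.68 on the log2 scale (SE 0.15, 95% interval -1.98 to -1.39), a level 3.21-fold lower, with an adjusted p of 3.6e-07. It ranked 16th by p of 13570 genes, of which 16.1% were called, 8.56% as higher and 7.55% as lower, and 1.14% were lower without overlap. *Nr1d2* ran from 83.4 to 133.6 CPM (median 113.5) in the controls and from 92.6 to 126.8 CPM (median 104.0) in the treated livers, the treated range lying inside that of the controls. Its log2 difference was -0.02 (SE 0.10, 95% interval -0.21 to 0.18) with an adjusted p of 0.927. *Rora* ran from 71.1 to 102.5 CPM (median 90.2) in the controls and from 83.0 to 106.8 CPM (median 85.6) in the treated livers. Its log2 difference was 0.01 (SE 0.07, 95% interval -0.14 to 0.15) with an adjusted p of 0.970. An exact permutation test over all groupings, 2-sided, gave 0.000175 for *Nr1d1*, the smallest value it can give, 0.937 for *Nr1d2* and 0.897 for *Rora*. Beside these values, *Des* of the stellate cell markers and *Sox9* of the cholangiocyte markers were lower in treated livers, with summed lists of 415.7 to 555.8 against 474.9 to 693.6 CPM and of 178.3 to 407.8 against 226.9 to 496.3 CPM, and their part was not tested.

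The Control_Standard_diet livers fall into S-number series of 5 and 4 libraries, and the treated livers share the series of the 4. *Nr1d2* was 98.6 ± 14.3 CPM in the 5 controls and 127.3 ± 6.79 CPM in the other 4, whose lowest value of 118.1 CPM lay above the highest of the 5, 113.5 CPM. *Rora* was 83.4 ± 9.26 and 95.8 ± 7.45 CPM and *Nr1d1* 136.0 ± 14.3 and 121.9 ± 18.6 CPM. Within the shared series, *Nr1d1* was lower in the treated livers by -1.60 on the log2 scale and called, and *Nr1d2* differed by -0.21 with an adjusted edgeR p of 0.148.

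The difference between the diets was tested as an interaction over all 36 libraries. The drop of *Nr1d2* under the HFD and its near equality under the standard diet differed by 1.51 on the log2 scale (SE 0.20), with an adjusted p of 1.19e-06. For *Nr1d1*, which was lower in both experiments, the drop under the standard diet was smaller by 1.30 (SE 0.36), with an adjusted p of 0.0169. Without the 5 controls of the other S-number series this value was 1.37 and no longer called (adjusted p = 0.0811), while that of *Nr1d2* was 1.30 and called (adjusted p = 0.000524). *Rora* gave -0.01 (SE 0.11, 95% interval -0.21 to 0.20) with an adjusted p of 0.987. Of 14105 genes, 9.06% were called for the interaction, 4.66% with a higher and 4.4% with a lower value under the standard diet.

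Set out over the 4 groups, mean *Nr1d1* fell in the order Control_Standard_diet (129.7 ± 16.95 CPM), Control_HFD (83.0 ± 42.4), Treated_Standard_diet (40.4 ± 13.3) and Treated_HFD (10.5 ± 5.83; mean ± SD). The ranges of Control_HFD and Treated_Standard_diet livers overlapped, as did those of the control groups. *Nr1d1* was 0.63 higher on the log2 scale in Control_Standard_diet than in Control_HFD livers (SE 0.24, adjusted p = 0.0296), in a comparison that called 47.9% of all genes, 23.3% as higher. This call was lost under upper-quartile scaling (0.55, adjusted p = 0.057), without the 5 controls of the other S-number series (0.56, adjusted p = 0.189), and without Control_HFD replicates 6, 7, 8 or 10 or Control_Standard_diet replicate 4, each left out alone (0.54 to 0.59). It was 1.94 higher in Treated_Standard_diet than in Treated_HFD livers (SE 0.27, adjusted p = 5.03e-07), where 38.5% of genes were called, 20.7% as higher. All 7 livers lay above all 10, for *Nr1d1* and for *Nr1d2*, as was so for 7.27% of genes. *Nr1d2* was at a like level in 3 groups, with 111.4 ± 18.7, 110.0 ± 14.2 and 103.4 ± 13.8 CPM in Control_Standard_diet, Treated_Standard_diet and Control_HFD livers, and stood apart at 36.2 ± 12.5 CPM in Treated_HFD livers. It differed by 0.10 between the control groups (SE 0.14, adjusted p = 0.572) and by 1.61 between the treated groups (SE 0.14, adjusted p = 6.75e-11). *Rora* was the most even, at 77.6 ± 7.81 and 78.9 ± 8.81 CPM in the HFD groups and 88.9 ± 10.3 and 89.3 ± 8.69 CPM in the standard diet groups. Its coefficient of variation within a group was 9.73 to 11.6%, against 12.9 to 34.6% for *Nr1d2* and 13.1 to 55.8% for *Nr1d1*. *Rora* was higher by 0.19 in the standard diet controls (SE 0.07, adjusted p = 0.0314), a call lost under upper-quartile scaling, where the difference was 0.10, and without any one of 5 control livers. Between the treated groups its difference of 0.18 missed the threshold (adjusted p = 0.0592). Between the controls, 4 of 4 lymphocyte, 2 of 4 neutrophil and 3 of 5 stellate cell markers were called lower under the standard diet. So were 2 of 5 cholangiocyte and 1 of 5 macrophage markers, while 2 of 6 hepatocyte and 1 of 4 endothelial markers were higher. Beside these stood 47.9% of all genes. Markers of these types were also called between the treated groups, and their part in the receptor values was not tested.

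Per kilobase of exon, which allows levels to be set side by side between genes, *Nr1d1* was the most abundant of the 3 in the control livers, at 30.01 CPM per kb in Control_HFD and 46.9 in Control_Standard_diet. *Nr1d2* had 22.3 and 24.0 CPM per kb in the same groups and *Rora* 6.30 and 7.21. In the treated livers *Nr1d2* came first, with 7.80 CPM per kb in Treated_HFD and 23.7 in Treated_Standard_diet livers, against 3.78 and 14.6 for *Nr1d1* and 6.40 and 7.25 for *Rora*. By group means, *Nr1d1* therefore went from a level above *Rora* to one below it in Treated_HFD livers. In replicates 1 and 2 of that group it lay above *Rora*, at 7.108 against 5.961 and 7.527 against 5.385 CPM per kb. The scale uses all merged exons of a gene, so the order of genes depends on that length. Among all genes kept in the fit, the level of *Nr1d1* per length stood at the 86.2 and 90.6 percentile in the control groups and at the 47.5 percentile in Treated_HFD livers.

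The share of *Nr1d1* in the REV-ERB transcripts, per length, was 54.7% ± 9.89 in Control_HFD livers (37.3 to 69.7%) and 31.3% ± 6.28 in Treated_HFD livers (23.0 to 45.5%). Under the standard diet it was 66.1% ± 5.39 (57.4 to 71.5%) in the controls and 37.4% ± 4.98 (31.2 to 45.8%) in the treated livers, without overlap. The ratio of summed REV-ERB transcripts was taken to *Rora* alone, without other ROR genes. It was 8.36 ± 2.84 in Control_HFD and 1.87 ± 0.883 in Treated_HFD livers, with no overlap between 5.17 to 14.2 and 0.845 to 3.38. It was 9.91 ± 1.08 and 5.33 ± 1.21 in the control and treated livers of the standard diet, from 7.95 to 11.1 and from 4.27 to 7.49. The ratio is thus given per transcript length, and no protein was measured.

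**Figure D2:**
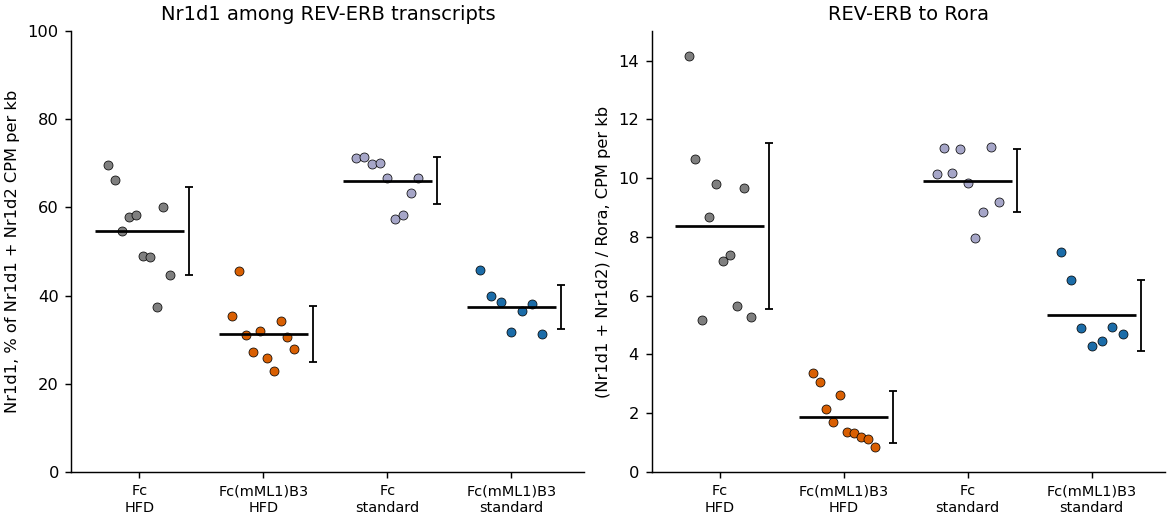
Left, the percentage of REV-ERB transcripts (CPM per kb of exon) that came from Nr1d1, and right, the ratio of Nr1d1 plus Nr1d2 to Rora, in each liver. Points are mice and bars the mean and SD of each group: the mean share of Nr1d1 was 54.7% and 31.3% under the HFD and 66.1% and 37.4% under the standard diet, in Fc and Fc(mML1)B3 livers.

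*Rorb*, a further ROR gene, had next to no reads, with a highest value of 0.0805 CPM in 1 library, and was not tested. Genes whose proteins carry out or limit the receptors' action were called at shares to be read against 14.8% of all genes under the HFD and 16.1% in the standard diet comparison. *Ncor1*, the corepressor NCoR that REV-ERB proteins recruit, was not called under the HFD (0.09, adjusted p = 0.299) and fell by 0.15 under the standard diet (SE 0.05, adjusted p = 0.0296), a call lost within the shared S-number series (-0.13, adjusted p = 0.143). *Hdac3*, the deacetylase that works with it, had log2 differences of -0.10 and 0.07, neither called. Of 6 ROR coactivators, 0 were called under the HFD by edgeR, DESeq2 or limma-voom, with *Crebbp*, a histone acetyltransferase, alone at an unadjusted p below 0.05 (0.024), and *Ncoa2* fell by 0.25 under the standard diet (SE 0.05, adjusted p = 0.00405), a call lost when all 36 libraries entered a single fit (-0.24, adjusted p = 0.0501). Of 6 genes for REV-ERB protein turnover, *Siah2*, a ubiquitin ligase, rose by 0.43 under the HFD (SE 0.13, adjusted p = 0.0233) though not with the treated series of 4 alone (0.33, adjusted p = 0.154). Under the standard diet 0 were called by edgeR, DESeq2 or limma-voom, and 0 had an unadjusted p below 0.05. The median log2 difference of the coactivator and turnover lists lay between -0.08 and 0.08, beside -0.01 over all genes in each diet.

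Of the clock genes that the receptors act on through ROREs, *Arntl* and *Clock* were called in opposite directions in the 2 diets, whereas *Cry1* rose in both. Under the HFD, with both REV-ERB genes low, all 4 tested of 5 RORE-driven clock genes rose, against 8.14% of all genes. *Arntl*, the BMAL1 gene and partner of CLOCK, ran from 0.619 to 2.09 CPM in the controls and from 6.68 to 28.7 CPM in the treated livers and rose by 3.98 on the log2 scale (SE 0.29, adjusted p = 1.08e-08), the smallest p of all genes. Its groups did not overlap, as was so, with the treated livers higher, for 0.587% of genes. *Nfil3*, a repressor of D-box genes, rose by 1.87 (adjusted p = 3.79e-08), *Cry1*, a repressor of CLOCK and BMAL1, by 2.22 (adjusted p = 3.45e-07) and *Clock* by 1.02 (adjusted p = 8.9e-06). *Npas2* was not tested. Under the standard diet, with *Nr1d1* low and *Nr1d2* level, *Cry1* rose by 1.16 (adjusted p = 3.22e-05), but *Clock* fell by 0.69 (adjusted p = 3.85e-06), *Npas2* by 2.12 (adjusted p = 0.00175) and *Arntl* by 1.05 (SE 0.27, adjusted p = 0.0108). *Npas2* was near the floor, at a mean of 0.925 CPM in these controls and 0.206 CPM in the treated livers, whose lowest value was 0.0414 CPM. *Nfil3* was not called (-0.29, adjusted p = 0.182). *Arntl* ran from 2.30 to 6.45 CPM in the standard diet controls and from 0.918 to 3.39 CPM in the treated livers, with overlap, and within the shared S-number series its difference of -0.76 was not called (adjusted p = 0.171). All 5 genes passed the interaction test, from -1.05 for *Cry1* to -5.02 for *Arntl*, beside 9.06% of all genes. The list had a median of 2.05 in the HFD comparison and of -0.69 in that of the standard diet, against -0.01 over all genes in each.

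The E-box list, whose genes share their drive with the REV-ERB genes, held 11 genes. Under the HFD, 6 fell and 1 rose, where 6.68% of all genes were called as lower and 8.14% as higher. *Dbp*, an activator from D-boxes, fell by 3.31 (SE 0.33, adjusted p = 5.38e-07), from 72.3 to 132.4 CPM in the controls to 3.13 to 25.2 CPM in the treated livers. *Ciart*, a repressor of CLOCK and BMAL1, fell by 1.96 (adjusted p = 0.00028), *Per3* by 1.21 (adjusted p = 3.8e-06), *Bhlhe41* by 0.93, *Per1* by 0.77 and *Tef*, of the *Dbp* family, by 0.76, whereas *Per2* rose by 0.41 (adjusted p = 0.0156). With the treated series of 4 alone, *Per1* was at -0.47 (adjusted edgeR p = 0.152) and *Per2* at 0.39 (adjusted edgeR p = 0.0989), neither called. *Ciart* was at -1.1 in that fit and at -3.12 with the series of 6, called in both. Under the standard diet, 7 rose and 1 fell, where 8.56% of all genes were called as higher and 7.55% as lower. *Usp2* rose by 1.49, *Per2* by 1.18, *Ciart* by 1.05, *Per3* by 0.74, *Per1* by 0.72, *Hlf* by 0.45 and *Tef* by 0.44, and *Bhlhe41* fell by 0.69, a call lost when all 36 libraries entered a single fit (adjusted p = 0.0548). *Dbp* did not follow *Nr1d1* there, with a log2 difference of 0.14 (SE 0.17, adjusted p = 0.625), while *Nr1d1* fell by 1.68. Of the 11 genes, 8 passed the interaction test, each with a higher value under the standard diet, as was called for 4.66% of all genes. Its median was -0.76 in the HFD comparison and 0.45 in the other.

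**Figure D3:**
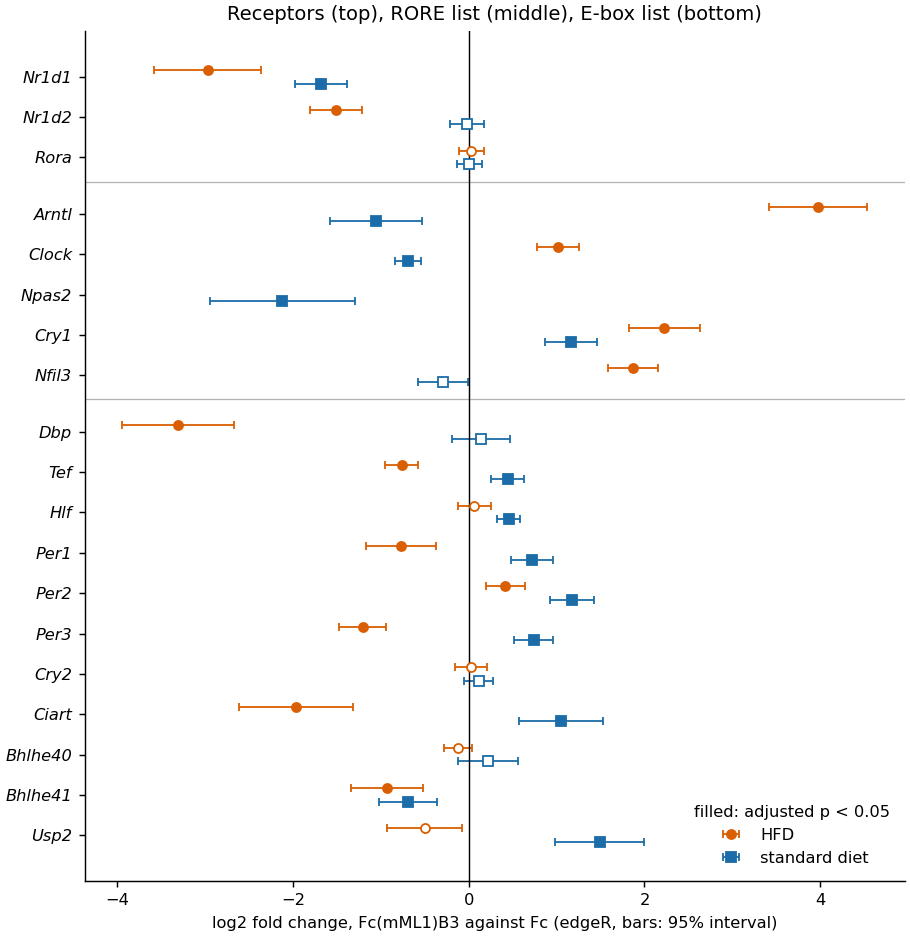
Log2 fold change of Fc(mML1)B3 against Fc livers from edgeR, with 95% intervals, for the receptors, the RORE list and the E-box list, under the HFD (circles) and the standard diet (squares). Filled symbols passed an adjusted p of 0.05. Nr1d1 lies left of 0 in both diets, Nr1d2 only under the HFD, Rora at 0 in both, and Arntl lies at 3.98 (circle) and -1.05 (square).

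Of 14 hepatic genes known to respond to REV-ERB or ROR proteins, 4 rose and 2 fell under the HFD, where 14.8% of all genes were called, and 2 rose and 4 fell under the standard diet, where 16.1% were. *Elovl3*, a fatty acid elongase, rose by 3.76 under the HFD (SE 0.46, adjusted p = 8.25e-06) and fell by 1.51 under the standard diet (SE 0.18, adjusted p = 1.01e-05). *Insig2*, which holds SREBP in the endoplasmic reticulum, rose by 1.42 (adjusted p = 6.94e-05) and fell by 1.09 (adjusted p = 7.73e-08) in the same order. Its HFD difference was 0.82 with the treated series of 4 alone and 1.71 with the series of 6, called in both. *Cyp7a1*, the rate-limiting enzyme of bile acid synthesis, was not called under the HFD (-0.30, adjusted p = 0.421) and rose by 1.72 under the standard diet (adjusted p = 3.85e-06). These genes passed the interaction test with -5.25, -2.49 and 2.03. The median of the list was -0.01 and 0.02 in the HFD and standard diet, near that of all genes. Of 6 immediate early genes tested, which mark handling and stress, *Junb* alone fell, by 0.80 and 1.05, so that 1 of 6 was called in each diet beside 14.8% and 16.1% of all genes. With the treated series of 4 alone its HFD difference of -0.77 was not called (adjusted p = 0.0663). The summed list was 85.0 to 174.4 against 93.5 to 133.6 CPM under the HFD and 101.8 to 159.2 against 79.0 to 137.9 CPM under the standard diet in control and treated livers. Its part in the REV-ERB values was not tested.

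Within each group, the mice were compared for whether the members moved together, in 36 relations of log2 CPM with permutation p-values adjusted over the family. In some groups levels drifted with replicate number. From replicate 1 to 10 of Treated_HFD, *Arntl* went from 6.68 to 28.7 CPM and *Dbp* from 25.2 to 3.57 CPM. From replicate 1 to 7 of Treated_Standard_diet, *Nr1d1* went from 63.9 to 27.4 CPM. What this order stands for is not given, so an order shared by genes cannot be told apart from a relation between them. *Nr1d1* and *Nr1d2* rose and fell together in Control_HFD livers (n = 10, r = 0.73, rho = 0.81, permutation p = 0.015 and 0.0069, adjusted 0.0451 and 0.031) and in Treated_HFD livers (n = 10, r = 0.87, rho = 0.82, permutation p = 0.00135 and 0.00582, adjusted 0.00694 and 0.0299). Leaving out the 2 mice farthest from the median gave r = 0.71 and 0.87. Within the S-number series of 6 Treated_HFD livers r was 0.80 and rho 0.49 (n = 6, exact permutation p = 0.0611 and 0.356, adjusted over 9 relations 0.109 and 0.534), so the relation did not pass there, and the series of 4 was too small for a value. In Treated_Standard_diet livers r was 0.86 and rho 0.71 (n = 7, exact permutation p = 0.025 and 0.0881, adjusted 0.0643 and 0.177), and 0.66 without 2 mice. In Control_Standard_diet livers there was no such relation over both S-number series together (n = 9, r = -0.16, rho = -0.12, exact permutation p = 0.686 and 0.776, adjusted 0.897 and 0.931). These series of 5 and 4 were too small for a value within each. Between them the genes shifted in opposite directions, *Nr1d2* from 98.6 to 127.3 CPM and *Nr1d1* from 136.0 to 121.9 CPM on average.

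*Nr1d2* and *Arntl* ran against each other in Treated_HFD livers (n = 10, r = -0.95, rho = -0.95, permutation p = 2e-05 and 8e-05, adjusted 0.00072 and 0.00288), with r = -0.94 without 2 mice. Within the S-number series of 6 of these livers, r was -0.90 and rho -0.94 (n = 6, exact permutation p = 0.00417 and 0.0167, adjusted over 9 relations 0.0375 and 0.15), and the series of 4 was too small. In Control_Standard_diet livers r was -0.88 and rho -0.75 (n = 9, exact permutation p = 0.00207 and 0.0255, adjusted 0.0093 and 0.0834), falling to -0.63 without 2 mice, and these livers fall into series of 5 and 4, too few for a value within each. In Control_HFD livers, where *Arntl* was lowest, r was -0.12 and rho -0.02 (n = 10, permutation p = 0.736 and 0.973, adjusted 0.914 and 0.973). The relation did not pass in Treated_Standard_diet livers either (n = 7, r = -0.75, rho = -0.79, exact permutation p = 0.0696 and 0.048, adjusted 0.137 and 0.133), with r = -0.47 without 2 mice. *Nr1d1* and *Arntl* also ran against each other in Treated_HFD livers (n = 10, r = -0.90, rho = -0.84, permutation p = 0.00071 and 0.00381, adjusted 0.00511 and 0.023), with r = -0.87 without 2 mice, but within the series of 6 the relation did not pass (n = 6, r = -0.82, rho = -0.54, exact permutation p = 0.0736 and 0.297, adjusted 0.109 and 0.534). In the other 3 groups their r was -0.30, 0.20 and -0.64, with adjusted permutation p-values of 0.609, 0.897 and 0.23. *Nr1d2* followed *Dbp* in Treated_HFD (n = 10, r = 0.91, rho = 0.93, permutation p = 0.00033 and 0.0003, adjusted 0.00297 and 0.0054), Control_Standard_diet (n = 9, r = 0.89, rho = 0.90, exact permutation p = 0.000226 and 0.00203, adjusted 0.00271 and 0.023) and Treated_Standard_diet livers (n = 7, r = 0.94, rho = 0.86, exact permutation p = 0.00258 and 0.0238, adjusted 0.0103 and 0.0834). Without 2 mice these r were 0.87, 0.88 and 0.90. The Control_Standard_diet series of 5 and 4 differed in both genes, with *Nr1d2* at 98.6 and 127.3 and *Dbp* at 59.3 and 80.7 CPM on average. The part of series in that r was not tested. In Control_HFD livers the relation did not pass (n = 10, r = 0.58, rho = 0.58, permutation p = 0.0761 and 0.0885, adjusted 0.137 and 0.177), with r = 0.56 without 2 mice. Within the series of 6 Treated_HFD livers r was 0.91 and rho 0.89 (n = 6, exact permutation p = 0.00972 and 0.0333, adjusted 0.0437 and 0.15). *Nr1d1* followed *Dbp* in Control_HFD (n = 10, r = 0.88, rho = 0.84, permutation p = 0.00106 and 0.00383, adjusted 0.00636 and 0.023) and Treated_HFD livers (n = 10, r = 0.95, rho = 0.85, permutation p = 6e-05 and 0.00281, adjusted 0.00108 and 0.023), with r of 0.82 and 0.88 without 2 mice. Within the series of 6 that r was 0.83 and rho 0.43 (n = 6, exact permutation p = 0.0639 and 0.419, adjusted 0.109 and 0.539). In Treated_Standard_diet livers r was 0.92 and rho 0.86 (n = 7, exact permutation p = 0.00437 and 0.0238, adjusted 0.0157 and 0.0834), and 0.72 without 2 mice. Over both of their S-number series, Control_Standard_diet livers gave r = -0.19 and rho = -0.35 (n = 9, exact permutation p = 0.624 and 0.359, adjusted 0.897 and 0.561). Relations of *Rora* passed the adjusted threshold in 1 of 16 cases for r, with *Nr1d2* in Control_Standard_diet livers (n = 9, r = 0.82, rho = 0.63, exact permutation p = 0.00924 and 0.076, adjusted 0.0302 and 0.177). Without 2 mice r fell to 0.27 there. *Rora* also differed between the series of 5 and 4, at 83.4 and 95.8 CPM on average, as did *Nr1d2*. The part of series was not tested.

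**Figure D4:**
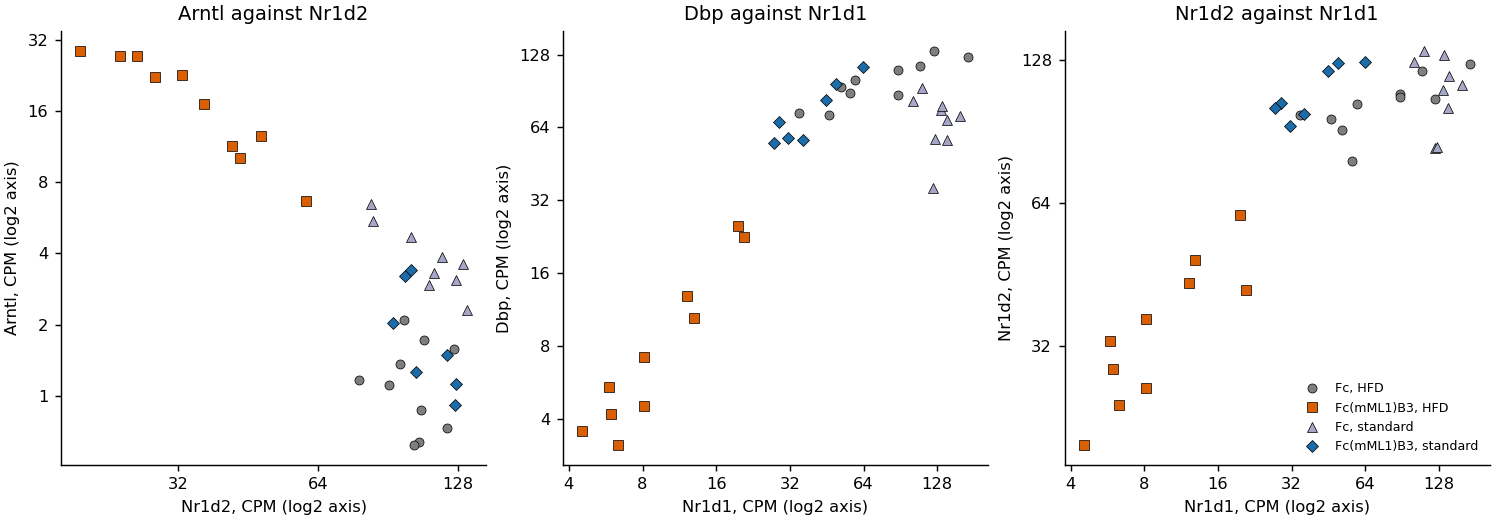
Each point is 1 liver, with CPM on log2 axes: Arntl against Nr1d2, Dbp against Nr1d1 and Nr1d2 against Nr1d1, with a symbol for each group. Treated_HFD livers form a falling line in the first panel (r = -0.95) and rising ones in the others (r = 0.95 and 0.87). Taken over both of their S-number series, Control_Standard_diet livers show no rise of Dbp or Nr1d2 with Nr1d1 (r = -0.19 and -0.16).

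Over all 36 libraries, after the mean of each group was taken off, the genes most like each member were ranked among 14104 others by Pearson's r, as a description without a test, since libraries share depth and handling. *Nr1d1* was most like *Dbp* (0.77), *Syt1* (0.74), *Phka2* (0.72), *Snapin* (0.71) and *Arsa* (0.71), and least like *Cry1* (-0.80), *Hsp90aa1* (-0.78) and *Desi2* (-0.77). *Nr1d2* stood 10th on its list (0.69). *Nr1d2* was most like *Dbp* (0.87), *Per3* (0.87), *Anxa7* (0.79), *Cdk2* (0.74) and *Prkg2* (0.70), and least like *Clpx* (-0.79), *Mesdc2* (-0.72) and *Arntl* (-0.71), with *Nr1d1* in place 7. *Rora* was most like *Epb4.1l5* (0.68), *Ikbkg* (0.66), *Hook3*, *Dmxl2* and *Picalm* (0.65 each), and least like *Nrbp1* (-0.64), *Thop1* (-0.63) and *Rab3a* (-0.61). Neither REV-ERB gene was near the top for *Rora*, with r of -0.22 for *Nr1d1* and -0.05 for *Nr1d2*. Ranked by Spearman's rho, 3, 3 and 1 of the 5 genes most like *Nr1d1*, *Nr1d2* and *Rora* were the same.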

How the data were processed

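Liver RNA of 36 mice was sequenced from directional libraries on a DNBSEQ-G400. The authors cleaned the reads with fastp, removed ribosomal reads with Bowtie2 2.4.5, aligned them to mm10 with STAR 2.7.10a and counted them with featureCounts 2.0.3. Per the file headers, the deposited counts are raw read counts per gene, made without a strand option and without multimapping reads. Each end of a pair was counted as a read, and 68.0 to 74.4% of counts from 1 to 20 were even, so counting error is larger than the counts alone imply. From the counts, edgeR 4.0.16 (R 4.3.3) was run with filterByExpr, TMM scaling and the quasi-likelihood F-test, with Benjamini-Hochberg adjustment over all genes tested, on the 20 HFD libraries, the 16 standard diet libraries, and all 36 for the interaction and for diet. The script was tested on simulated data. Intervals at 95% assume a normal error. DESeq2 1.42.0, limma 3.58.1 (voom), upper-quartile scaling, other filters, a replicate block, leaving out each library and the S-number series were tried as alternatives, and leaving out 5 controls from the fits of all libraries was chosen after seeing the data. None of the 147 pairs within groups agreed within sampling noise (lowest chi-square per degree of freedom 6.06). The mice are separate animals, caged 2 to 4 together, and cage was not modelled. Replicate numbers do not pair the samples. Named genes are the members, every gene of the RORE and E-box lists, of other lists up to 3 called genes of smallest p in either diet, the 5 most and 3 least like each member, and genes overlapping a member. The members and lists were chosen with earlier results of these data known. Protein sequences were not used here. Some genes of the lists are not reported here.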

Additional observations from a re-analysis of the deposited data

Results flagged for a closer look

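The interaction test of edgeR was read for 19 genes, the 3 members and the RORE and E-box lists. Of these, 15 passed at an adjusted p below 0.05, beside 9.06% of the 14105 genes tested. In each of the 15, the difference between treated and control livers was not the same in the HFD and standard diet experiments. *Nr1d1* (1.30) and *Nr1d2* (1.51) were among them, and *Rora* was not. The others were *Arntl* (-5.02), *Npas2* (-4.47), *Nfil3* (-2.15), *Clock* (-1.69) and *Cry1* (-1.05), lower under the standard diet, and *Dbp* (3.46), *Ciart* (3.03), *Usp2* (2.01), *Per3* (1.96), *Per1* (1.51), *Tef* (1.22), *Per2* (0.78) and *Hlf* (0.41), higher there. Without the 5 standard diet controls of the other S-number series, *Nr1d1*, *Per2* and *Hlf* were no longer called, and *Hlf* also lost its call with no filter on low counts (adjusted p = 0.0571).

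Of 76 groups of values searched for a liver that stands apart, 2 held one: *Npas2* at 0.521 CPM in replicate 3 of Treated_Standard_diet, with 0.211 CPM in the nearest liver, and *Cry1* at 3.77 CPM in replicate 5 of Control_Standard_diet, with 6.50 CPM in the nearest. Chance alone flags about 1 in 20 groups, and no group of *Nr1d1*, *Nr1d2* or *Rora* held such a liver.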

How the results depend on the processing

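Of 120 values of the members under alternatives other than leaving out single libraries, 108 kept direction and call, among them all values of *Nr1d1* and *Nr1d2* under the HFD (-3.51 to -2.41 and -1.82 to -1.14) and of *Nr1d1* under the standard diet (-1.73 to -1.60). Upper-quartile scaling ended the calls of *Nr1d1* (0.55) and *Rora* (0.10) between the control groups. Leaving out 5 standard diet controls, a choice made after seeing the data, ended those of *Nr1d1* in the interaction (1.37) and between the controls (0.56). Uncalled values turned sign: *Rora* under the HFD with upper-quartile scaling (-0.01) and with the treated series of 4 (-0.01), *Rora* under the standard diet with upper-quartile scaling (-0.00) and in the shared series (-0.10), and *Rora* in the interaction under limma-voom (0.00). Replicate numbers did not pair the samples (1 of 10 HFD pairs and 0 of 7 standard diet pairs correlated above 0.1, and no sample correlated best with its own number). A replicate block gave 0.04 for *Nr1d2* under the standard diet and 0.02 for *Rora* in the interaction, brought *Rora* to 0.23 and a call between the treated groups, and moved the calls over all genes to 1294 and 1296 from 1972 and 2186. The block also ended the calls of *Bhlhe41* (-0.72, adjusted p = 0.0766), *Arntl* (-1.11) and *Ncor1* (-0.14) under the standard diet. Under the HFD it ended those of *Per1* (-0.82) and *Siah2* (0.43), and in the interaction that of *Hlf* (0.38, adjusted p = 0.0911). Causes were not tested.

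Calls over all genes under the HFD were 3133 with all 36 libraries in a single fit, 178 at the study's thresholds and 705 with the treated series of 4. Under the standard diet they were 785, 320 and, in the shared series, 942. Without the 5 controls the interaction called 605 genes and the control comparison 4443, against 1278 and 6759. Upper-quartile scaling changed the split of higher and lower calls from 1083 and 889 to 865 and 1075 under the HFD, from 1162 and 1024 to 1061 and 1128 under the standard diet, from 657 and 621 to 634 and 672 in the interaction, from 3288 and 3471 to 2523 and 4795 between the controls, and from 2914 and 2520 to 2208 and 3799 between the treated groups.

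Leaving out each library in turn left *Nr1d1* and *Nr1d2* under the HFD at -3.13 to -2.79 and -1.61 to -1.43, *Nr1d1* under the standard diet at -1.83 to -1.61, and the interaction of *Nr1d1* at 1.11 to 1.45 and of *Nr1d2* at 1.42 to 1.62, all still called. *Rora* stayed uncalled at 0.00 to 0.06, -0.05 to 0.03 and -0.05 to 0.02 in these comparisons, and *Nr1d2* under the standard diet at -0.07 to 0.02. Between the controls, *Nr1d1* ran from 0.54 to 0.83 and *Rora* from 0.16 to 0.23. *Nr1d1* lost its call without Control_HFD replicates 6, 7, 8 or 10 or Control_Standard_diet replicate 4, and *Rora* without Control_HFD replicates 5, 7 or 8 or Control_Standard_diet replicates 7 or 9. Between the treated groups *Rora* ran from 0.13 to 0.20 and was called without Treated_HFD replicates 3, 7 or 8 or Control_Standard_diet replicate 2.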
